A study of Mus musculus with 4 samples.

Results

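Cycling T lymphocytes are T cells caught while they copy and divide their DNA. They were chosen here by unique molecular identifiers (UMIs), the tags that count captured RNA molecules in each cell. A cell was a member if it had at least 1000 UMIs, at most 15% of them mitochondrial, at least 5 UMIs of Top2a and Mki67 together, at least 3 of Cd3e, Cd3g and Cd3d together, under 20 of H2-Ab1 and at most 1 of Csf1r. Of 13124 cells that passed the filters, 3000 passed the T cell part of the gate and 334 were members. These cells came from 4 droplet libraries of sorted live CD45+ immune cells. Control skin 1 and 2 were taken from C57/BL6 mice without tumor cells. Skin tumor 1 and 2 grew for about 2 weeks in C57/BL6 mice of 8 to 10 weeks of age that had been injected in the flank with cells of the 2323 line. This line was derived from a mouse tumor whose alleles include K14rtTA, tetOCre and P53-/-, in which an epidermal keratin promoter drives the rtTA activator and rtTA switches on the tetO-controlled Cre recombinase. The tumors are thus grafts of 1 line, and the age of the control mice was not given in the sources used here.

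When an antigen is recognized, T lymphocytes enter the cell cycle, replicate DNA in S phase and divide in M phase. Mki67 encodes a protein that coats mitotic chromosomes, and Top2a encodes the topoisomerase that untangles sister DNA molecules. The T cell receptor is built either from α and β chains, in CD4 and CD8 T cells, or from γ and δ chains. Normal mouse epidermis holds a resident γδ population, the dendritic epidermal T cells (DETC), which carry an invariant receptor and renew themselves locally. Regulatory T cells (Treg) express the transcription factor Foxp3 and restrain other T cells. In the mouse genome (GRCm38), Top2a lies on chromosome 11 (98992943 to 99024189), Mki67 on chromosome 7 (135689784 to 135716361), Cd3e on chromosome 9 (44998740 to 45009627), Trdc on chromosome 14 (54142851 to 54148868), Cd8a and Cd4 on chromosome 6 (71373427 to 71379173 and 124864692 to 124888221) and Foxp3 on chromosome X (7573644 to 7595245).

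The libraries held 50932896 UMIs in 3499 cells (control skin 1), 52784293 in 3862 cells (control skin 2), 73904272 in 5176 cells (skin tumor 1) and 34893543 in 2258 cells (skin tumor 2). Members were deep cells, with a median of 20223, 18891, 20243 and 16141 UMIs per cell, while T-gated cells that did not cycle had 10056, 10240, 7793 and 8080. The gate fixed the levels of its own genes, which are given as a description. Top2a stood at 765, 901, 783 and 664 UMIs per 1000000 UMIs of a library's members (CPM, scaled between libraries by TMM factors) in the summed members of the 4 libraries, and Mki67 at 524, 681, 562 and 607. No sharp gap separated members from the rest, since 44 T-gated cells had 4 UMIs of Top2a and Mki67 and 24 had 5. Any 2 libraries shared between 1 and 7 barcodes, and 1 member in all carried a barcode seen in another library.

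The libraries did not all resemble their group partner. Skin tumor 1 gave 161 members and skin tumor 2 gave 29, against 76 and 68 in the control skins. Cycling CD8 cells dominated the former tumor, and CD4 cells and Tregs together the latter, so values over both tumors are given beside those of each.

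The first question was how many T cells cycled in each tissue. In control skin 1, 6.95% of T-gated cells cycled (76 of 1093, 95% Clopper-Pearson interval 5.52 to 8.63%). In control skin 2 the share was 7.14% (68 of 953, 5.58 to 8.96%). Skin tumor 1 had 23.5% (161 of 685, 20.4 to 26.9%) and skin tumor 2 had 10.8% (29 of 269, 7.34 to 15.1%). Both tumors lay above both control skins, but the tumor share of 17.1% ± 9.0 (SD, n = 2) rested mostly on skin tumor 1, as the control share was 7.04% ± 0.129 (SD, n = 2). The intervals cover counting error only.

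The difference did not pass the test, with a log2 fold change of 1.33 ± 0.44 (SE) and an adjusted p of 0.0763 in edgeR's quasi-likelihood test on cell numbers. In a two-sided exact permutation test, the smallest p that 4 libraries allow is 0.33, and that was the value here. When every cell was thinned to 3000 UMIs (30, 23, 20 and 6 T-gated cells were too shallow), with 2 UMIs of Top2a and Mki67 required, the shares were 6.40, 6.67, 22.6 and 10.6%. As a share of all cells that passed the filters, members made up 2.44, 2.13, 3.35 and 1.44%, and the groups overlapped (log2 fold change 0.15, adjusted p = 0.817, edgeR). T-gated cells as a whole took 35.1, 29.9, 14.2 and 13.4% of all cells, so fewer T cells stood beside a larger cycling share of them. Among cells outside the T gate, 7.82, 8.05, 8.33 and 6.50% met the cycling threshold, and the groups overlapped there too.

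The next question was which lineages cycled. Cells were called γδ with at least 2 Trdc UMIs, CD8 with at least 2 Cd8a UMIs, CD4 with at least 1 Cd4 UMI without Foxp3, and Treg with at least 1 Foxp3 UMI. Cells that met more than 1 call were set apart as mixed (22 members), and 26 members had no call. In all, 86 members were γδ, 138 CD8, 38 CD4 and 24 Treg.

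**Figure D1:**
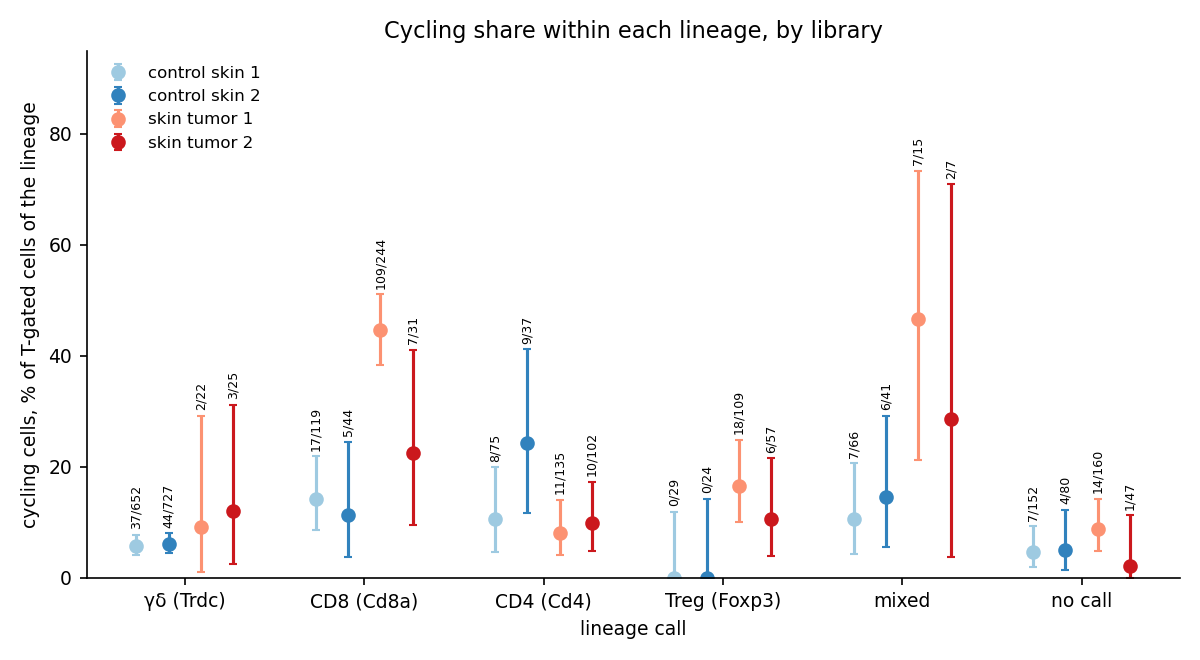
Cycling cells as a percentage of the T-gated cells of each lineage call (y axis) for each of the 4 libraries (points), with 95% Clopper-Pearson intervals and the cell numbers written above. CD8 cells of skin tumor 1 reach 44.7%, and the Treg points of both control skins lie at 0.

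Among the cycling T cells of control skin, γδ cells were the largest lineage, although the share of them that cycled was low. In control skin 1, 37 of 652 γδ cells cycled (5.67%, 4.03 to 7.74%). In control skin 2, 44 of 727 did (6.05%, 4.43 to 8.04%). They made up 48.7 and 64.7% of the members there. The tumors held few γδ cells at all, with 2 of 22 cycling in skin tumor 1 (9.09%) and 3 of 25 in skin tumor 2 (12%), or 1.24 and 10.3% of members. Relative to all cells, cycling γδ cells fell by 3.94 ± 1.11 (SE) on the log2 scale (adjusted p = 0.00471, edgeR on cell numbers), and non-cycling γδ cells fell by 4.82 ± 0.54 (adjusted p = 3.3e-08). The share of γδ cells that cycled did not pass the test (log2 fold change 0.85 ± 0.66, adjusted p = 0.334). The fall of cycling γδ cells missed the threshold without control skin 1, control skin 2 or skin tumor 1 (adjusted p = 0.122, 0.122 and 0.139).

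Cycling γδ cells of control skin carried the genes of DETC. Trdv4, the variable segment of their δ chain, was found in 36 of 37 and 44 of 44 cells, Tcrg-C1 in 91.9 and 100% and Fcer1g, a signaling adaptor, in 94.6 and 97.7%. Prf1, which encodes the pore-forming perforin, was found in 70.3 and 81.8%. As background, 2.51 and 1.42% of myeloid cells (at least 2 Csf1r UMIs and no Cd3 UMI) had a Trdv4 UMI, 2.76 and 3.36% a Tcrg-C1 UMI and 1.00 and 1.59% a Prf1 UMI, at median depths of 17761 and 16567 UMIs. Myeloid cells express Fcer1g themselves, and it was found in 23.5% of the cycling CD8 cells of control skin 1. Genes of the dermal γδ cells that make IL-17 were rare. At least 2 UMIs of Cd163l1, Sox13, Blk, Il23r and Il17a together were seen in 6 of 37 and 2 of 44 cycling γδ cells, 1 of them without Trdv4. Of non-cycling γδ cells, 93.3 and 91.4% had a Trdv4 UMI and 16.3 and 11.9% had those 2 UMIs. Trdc RNA was also seen in other cells of control skin, where 12.3 and 10.1% of myeloid cells had a Trdc UMI, against 0.0988 and 0.285% in tumors. Free RNA and doublets cannot be told apart here. Among members, 60.5, 76.5, 3.73 and 13.8% had a Trdc UMI.

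CD8 cells held the highest cycling share of the called single lineages in both tumors. In skin tumor 1, 109 of 244 CD8 cells cycled (44.7%, 38.3 to 51.1%), and in skin tumor 2, 7 of 31 (22.6%, 9.59 to 41.1%). In the control skins, 17 of 119 (14.3%, 8.55 to 21.9%) and 5 of 44 (11.4%, 3.79 to 24.6%) cycled. Both tumors lay above both controls, and the interval of skin tumor 2 overlapped those of the controls. The share rose by 1.57 ± 0.29 (SE) on the log2 scale (adjusted p = 0.00166, edgeR on cell numbers with the CD8 cells as offset). This call was lost after thinning (16.0, 11.4, 38.5 and 16.1%, adjusted p = 0.140), with a lineage call at 1 UMI (adjusted p = 0.134), and without control skin 1, control skin 2 or skin tumor 1 (adjusted p = 0.332, 0.345 and 0.391). Without skin tumor 1 the log2 fold change was 0.73.

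CD8 cells made up 22.4, 7.35, 67.7 and 24.1% of members, with control skin 1 and skin tumor 2 close together. Relative to all cells, cycling CD8 cells did not pass the test (log2 fold change 1.94 ± 0.97, adjusted p = 0.121). A Cd8a UMI was found in 27.6, 13.2, 78.3 and 31.0% of members, against 1.25, 1.06, 1.24 and 0.570% of myeloid cells.

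CD4 cells without Foxp3 cycled in every library. In the control skins 8 of 75 (10.7%, 4.72 to 19.9%) and 9 of 37 (24.3%, 11.8 to 41.2%) cycled, and in the tumors 11 of 135 (8.15%, 4.14 to 14.1%) and 10 of 102 (9.80%, 4.80 to 17.3%). The tumors had the lower shares. Both lay within the counting interval of control skin 1 and below that of control skin 2, whose interval overlapped theirs, and the difference did not pass the test (log2 fold change -0.79 ± 0.67, adjusted p = 0.334). Without control skin 1 the log2 fold change was -1.44, and without control skin 2 it was -0.26. Cycling CD4 cells were 10.5, 13.2, 6.83 and 34.5% of members. Cd4 RNA was also present in 14.5% of myeloid cells of skin tumor 1 and 8.55% of those of skin tumor 2, against 18.01 and 58.6% of members.

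Tregs were counted among cycling cells in the tumors, where 18 of 109 (16.5%, 10.1 to 24.8%) and 6 of 57 (10.5%, 3.96 to 21.5%) cycled. In control skin, 0 of 29 and 0 of 24 cycled, which allows shares of up to 10.3 and 12.5% by a limit of 3 counts. The Clopper-Pearson intervals reach 11.9 and 14.2%. With the cells of both libraries of a group pooled, the tumor share was 14.5%. A count of 0 of 53 allows up to 5.66% in control skin by the limit of 3 counts, 2.55-fold lower (6.72% by the Clopper-Pearson interval). That fold covers counting error in pooled cells only, leaves out mixed cells and is no bound on the difference between tissues. Skin tumor 2 alone lay below the limit of control skin 2, and below the Clopper-Pearson limits of both control skins. The cycling share of Tregs did not pass the test (adjusted p = 0.136, edgeR), but passed without skin tumor 2 (adjusted p = 0.0199). Cycling Tregs relative to all cells did (adjusted p = 9.7e-06), and that call was lost without control skin 1 or 2 (adjusted p = 0.0828 and 0.07875). The count of 0 in control skin depends on the threshold and the calls. After thinning, 2 of 24 Tregs of control skin 2 counted as cycling. At full depth, 3 members of control skin 1 and 1 of control skin 2 had a Foxp3 UMI but were mixed with another lineage. Those 3 had a median of 7 Foxp3 UMIs, against 3 in the Foxp3-positive members of each tumor. With a threshold of 3 UMIs of Top2a and Mki67, the cycling share of Tregs changed by 0.76 on the log2 scale. A Foxp3 UMI was found in 3.95, 1.47, 13.04 and 27.6% of members, against 0.251, 0.531, 0.543 and 2.71% of myeloid cells.

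**Figure D2:**
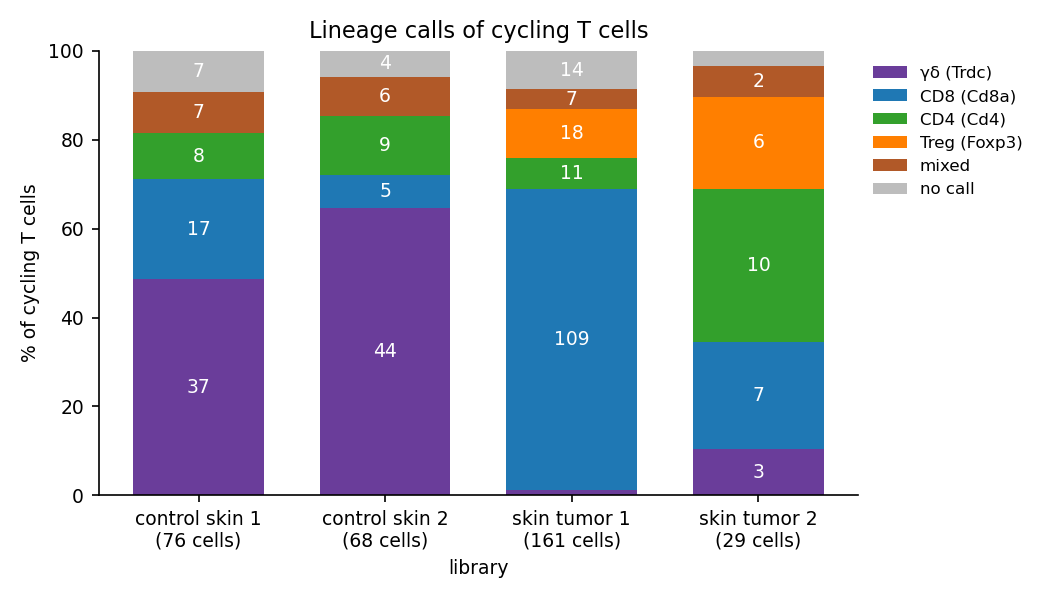
Lineage calls of cycling T cells in each library, as a percentage of its members (y axis), with cell numbers inside the bars. γδ cells fill 48.7 and 64.7% of the control bars, CD8 cells 67.7% of skin tumor 1, and CD4 cells and Tregs 34.5 and 20.7% of skin tumor 2.

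No lineage had 10 cycling cells in every library, so genes within a lineage are described by the share of cells with a UMI, without a test. Cycling CD8 cells of control skin 1 (17 cells) and skin tumor 1 (109 cells) had Gzmb, the serine protease that kills target cells, in 88.2 and 88.1%. They stood far apart in other genes. Gzmk, another granzyme, was found in 17.6 and 75.2%, and Entpd1 (CD39), an ectoenzyme of chronically stimulated T cells, in 5.88 and 78.9%. The inhibitory receptor genes Pdcd1 (PD-1) and Lag3 were found in 58.8 and 92.7% and in 5.88 and 52.3%. Itgae (CD103), which tethers T cells to epithelium, was found in 94.1 and 3.67%, and Itga4, the α4 integrin used to leave blood vessels, in 11.8 and 93.6%. The median depths were 18854 and 22690 UMIs. Of the myeloid cells of these libraries, 2.76 and 1.78% had a Gzmb UMI, 0 and 0.247% a Gzmk UMI, 1.25 and 0.791% a Pdcd1 UMI and 2.51 and 13.6% a Lag3 UMI. Shares of myeloid cells were high for Entpd1 (69.2 and 88.9%) and Itga4 (28.1 and 67.5%), and for Itgae they were 30.1 and 3.90%, so these 3 genes and Lag3 differed between the libraries in the same direction in myeloid cells. The part of RNA from other cells in their shares was not tested. Lineage and tissue are compared here through 1 library each.

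The 18 cycling Tregs of skin tumor 1 all had Il2ra, the high-affinity IL-2 receptor chain. Cycling CD4 cells of skin tumor 1 and 2 (11 and 10 cells) had Pdcd1 in 81.8 and 90% and Tnfrsf4 (OX40), a costimulatory receptor, in 100 and 90%. Of the myeloid cells of skin tumor 1, 2.08% had an Il2ra UMI. Pdcd1 was found in 0.791 and 2.42% and Tnfrsf4 in 1.48 and 2.85% of the myeloid cells of skin tumor 1 and 2.

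**Figure D3:**
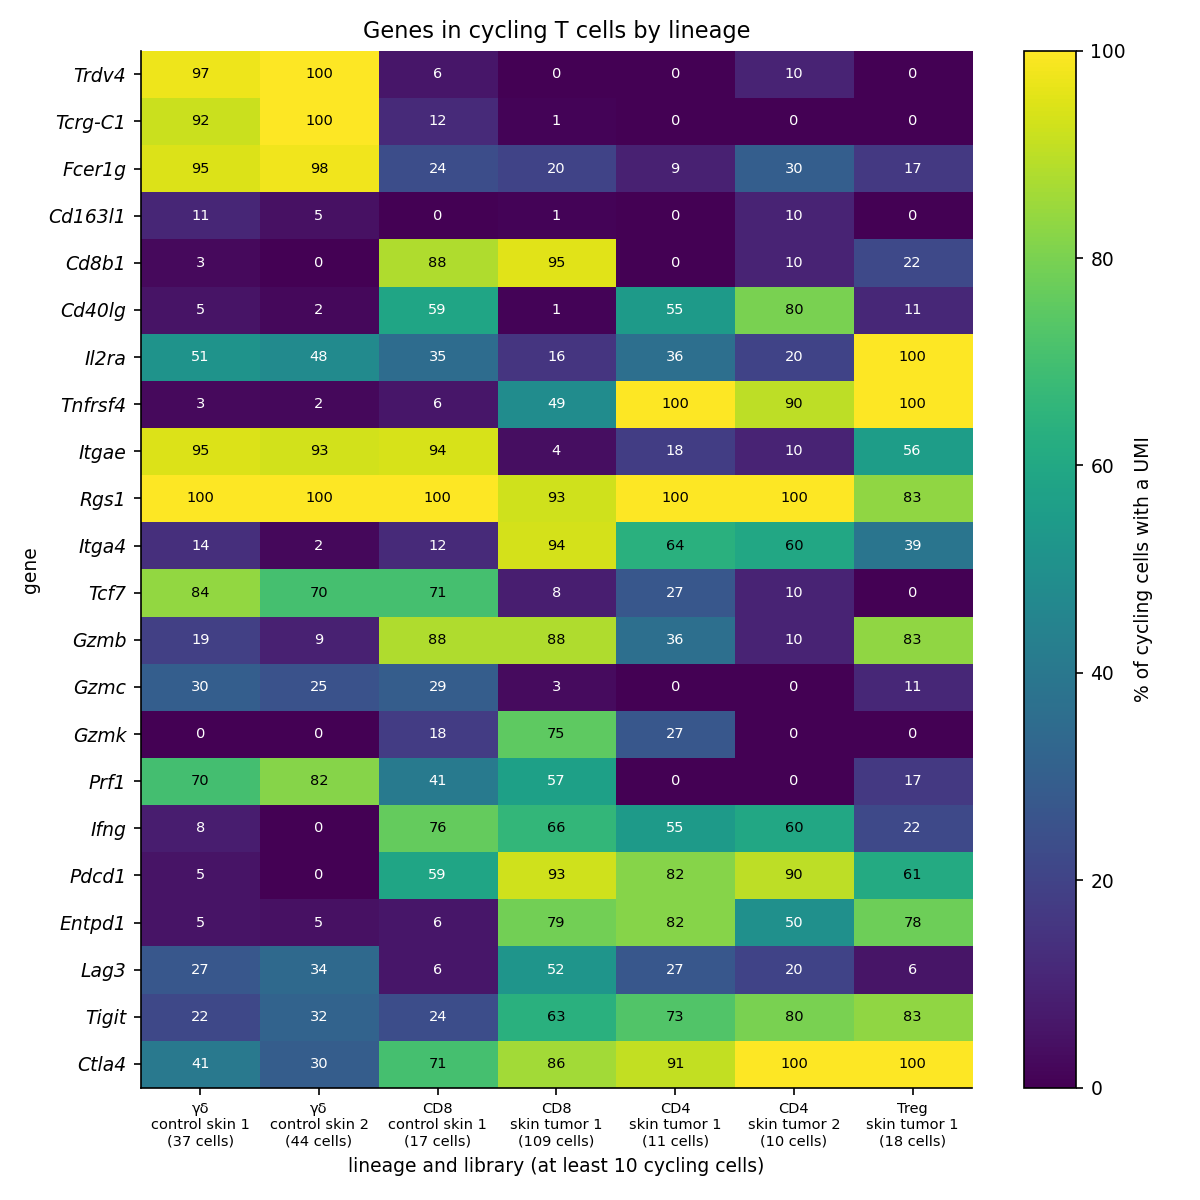
Share of cycling cells with at least 1 UMI of each gene (color and printed number, %), for every lineage and library with at least 10 cycling cells. Itgae is near 94% in control γδ and CD8 cells and 3.67% in CD8 cells of skin tumor 1, while Itga4 shows the opposite.

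Genes were then compared between tumor and control over the UMIs summed from all members of a library. Of 9212 genes tested, 464 (5.04%) rose and 996 (10.8%) fell in tumors (edgeR's quasi-likelihood test, adjusted p under 0.05). Since lineages differed between the groups, this fit cannot tell a change in lineage from a change within a lineage. A fit without γδ and mixed cells, on 32, 18, 152 and 24 cells, is therefore given beside it. Its libraries still differed in lineage, with 17, 5, 109 and 7 CD8 cells and 0, 0, 18 and 6 Tregs, so the same limit holds for it. Of its 6645 genes, 125 (1.88%) rose and 207 (3.12%) fell. Of the genes called in all members, 396 that rose and 668 that fell were tested there, and 393 and 611 had the same sign. Of these, 95 that rose and 163 that fell were called in the same direction. The cells of this fit are also in the first, so agreement between the fits is partly built in and is no independent support.

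Of 6 tested γδ receptor genes, 5 fell and none rose (median log2 fold change -5.02, against 0.05 over all genes tested). Trdc stood at 1370 and 2146 CPM in the control skins and at 9.36 and 142 CPM in the tumors. Of 12 genes of the DETC list, 7 fell, among them Fcer1g (827, 1016, 15.8 and 110 CPM) and Gem, a small GTPase (1197, 1721, 124 and 239 CPM), and 1 rose, Klre1. In the list of IL-17 type γδ cells, 4 of 7 tested genes fell. Of the 10 named genes with the largest fall, 9 had no UMI in the 190 tumor members. Enox1 was found in 63 of 144 control members and in 0 tumor members, 151-fold higher in control skin by the limit of 3 counts. Such folds come from UMIs pooled over a group and leave out the spread between libraries. They are no bound on the difference between tissues. Dsp (desmoplakin, a desmosome protein), Cacnb2 (a calcium channel subunit), Cdh10 (a cadherin), Efnb2 (an ephrin ligand), Paqr5, Slc35f3 and Ace had no tumor UMI. Their folds by the same limit were 93.4, 134, 52.0, 37.5, 28.5, 32.0 and 19. Nap1l5 had 179 UMIs in control and 1 in tumor members. Dsp was found in 64.9 and 63.6% of cycling γδ cells of the controls and in 0 of the 17 cycling CD8 cells of control skin 1, against 2.76 and 4.25% of myeloid cells of the controls. Cd207 (langerin), a gene of Langerhans cells, was in 39 control members and no tumor member (29.5-fold by the same limit). It was the top gene of the 4 Langerhans genes in control skin 1. That list summed to 61.7, 48.6, 14.8 and 7.39 CPM in members, and its part in this result was not tested.

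The 10 genes with the largest rise were absent or nearly so from control members. Synpo2, an actin-binding protein, was found in 41 of 161 and 10 of 29 tumor members and in no control member, at least 58.7-fold higher. Serpine2 (a protease inhibitor), Exph5, Atp2b2 (a calcium pump), Myo1h, Itih5, Slc17a6, Ltf and Ifit1bl1 also had no control UMI. Their folds by that limit were 78.3, 31.4, 28.2, 24.9, 18.7, 13.1, 12.7 and 10.5. Ptprk, a receptor phosphatase, had 190 UMIs in tumor and 1 in control members. Among cycling CD8 cells of skin tumor 1, 30.3% had Synpo2 and 34.9% had Serpine2, and none of the 18 cycling Tregs of that tumor had either, while 1.73 and 1.53% of its myeloid cells had Synpo2 and Serpine2. In the fit without γδ and mixed cells, Synpo2 and Serpine2 were again among the 5 genes with the largest rise, and Trpm6, Kcnma1, Palld, Krt83 and Agap1 were those with the largest fall.

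Several genes of T cell exhaustion rose in members. Of 14 tested, 7 rose and 1 fell (median log2 fold change 0.93). Pdcd1 stood at 74.7 and 30.6 CPM in control skin and at 295 and 249 CPM in tumors, a rise of 2.37 ± 0.40 (SE) on the log2 scale (adjusted p = 0.0104). Entpd1 stood at 17.5, 5.36, 161 and 126 CPM, a rise of 3.63 ± 0.45 (adjusted p = 0.00471). Both tumors were above both controls for each. Ctla4 (206, 114, 484 and 677 CPM), Tigit, Cd200, Rgs16 and Bhlhe40 also rose, while Cd244, a receptor of killer cells, fell (118, 153, 19.9 and 17.8 CPM). Lag3 was at 16.1, 23.0, 28.6 and 14.2 CPM (adjusted p = 0.680), and Tox, which members expressed in every library, was at 960, 1293, 756 and 1250 CPM (adjusted p = 0.752). Without γδ and mixed cells, 5 of 13 rose and none fell, with Pdcd1 at 144, 113, 314 and 255 CPM (log2 fold change 1.14, adjusted p = 0.0446) and Entpd1 at a log2 fold change of 3.64 (adjusted p = 0.0048). The direction of Tox turned there, to 402, 634, 826 and 1185 CPM with both tumors above both controls (log2 fold change 0.96, adjusted p = 0.142). Havcr2 turned from 252, 269, 192 and 142 CPM (-0.63) to 117, 63.4, 205 and 143 CPM (0.93, adjusted p = 0.148, edgeR). Nr4a2 (-0.77 to 0.05) and Tox2 (0.695 to -0.42) changed sign as well, without passing the test there (adjusted p = 0.951 and 0.758, edgeR). Cd244 (log2 fold change -0.68 against -2.80 over all members), Bhlhe40 (0.61 against 1.56) and Tigit (1.21 against 1.16) missed the threshold.

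Most interferon genes that moved rose. Of 24 tested, 13 rose and 2 fell (median 1.65). Ifi27l2a stood at 174, 116, 1287 and 782 CPM, and the immunoproteasome gene Psmb8 at 191, 158, 610 and 517 CPM. The 2 that fell were Isg15, a ubiquitin-like modifier (174, 136, 36.7 and 73.0 CPM), and Socs1, an inhibitor of cytokine signaling (81.4, 106, 22.7 and 44.5 CPM). Isg15 was found in 78.4 and 65.9% of cycling γδ cells of control skin and in 42.1 and 40.4% of myeloid cells there, and the part of RNA from other cells in the former was not tested. Without γδ and mixed cells, 6 of 21 rose and none fell, Ifi27l2a and Psmb8 among them, and neither Isg15 nor Socs1 passed the test.

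Genes of tissue residency went the other way. Of 8 tested, 4 fell and none rose (median -1.44). Itgae stood at 334, 346, 13.5 and 85.5 CPM, Rgs1 and Rgs2, regulators of G protein signaling, at 2511, 2528, 459 and 793 CPM and at 2291, 3254, 248 and 572 CPM, and Ahr, the aryl hydrocarbon receptor that epidermal T cells need, at 146, 212, 21.7 and 46.3 CPM. Without γδ and mixed cells, 4 of 8 fell again, now Itgae, Rgs2, Cxcr6 and Cxcr3. The recirculation list was split, with 3 of 11 higher and 2 lower (27.3 and 18.2%, against 5.04 and 10.8% of all genes tested). Itga4 (31.6, 4.59, 359 and 246 CPM) and Lef1 were among those that rose. Tcf7, a transcription factor of memory and naive T cells, fell (115, 104, 20.9 and 10.7 CPM), as did Itgb7. Itga4 and Tcf7 kept their calls without γδ and mixed cells (log2 fold change 2.98 and -2.83), and Lef1 and Itgb7 did not.

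Effector genes did not move as a block. Of 16 cytotoxic genes, 3 rose and 3 fell (18.8% each, against 5.04 and 10.8% of all genes tested). Ccl5, a chemokine, stood at 237, 104, 1176 and 598 CPM, and Klrg1, a receptor of effector cells, at 0.673, 0, 25.6 and 51.7 CPM. Ctsw, Klrk1 and Lamp1 fell. Gzmb was at 347, 224, 573 and 504 CPM, with both tumors above both controls (31.3% of all genes tested lay so, and 30.8% lay the other way), and did not pass the test (adjusted p = 0.0735). Gzmk rose (4.04, 0, 83.2 and 28.5 CPM) and Gzmc fell (350, 74.3, 5.91 and 5.34 CPM). Of the 13 Treg genes tested, 6 rose, among them Ctla4, Tnfrsf4, Lrrc32 and Il10, and 2 fell, Ccr8 and Capg. Some lists share genes, so their counts are not separate results. Ctla4 is in the exhaustion and Treg lists and Itgae in the DETC and residency lists. Il2rb is in the DETC and IL-2 receptor family lists. Of 14 genes of the IL-2 receptor family and its targets, Myc alone rose (2.69, 3.83, 35.5 and 17.8 CPM), and Il2rb, Il2rg and Il4ra fell. These are 7.14 and 21.4%, against 5.04 and 10.8% of all genes tested. Of 13 glycolysis genes none rose and Hk2 fell (7.69%, against 10.8% of all genes tested).

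Most of these genes missed the threshold without γδ and mixed cells, a fit on fewer cells, and their log2 fold changes did not all shrink. Of the 16 cytotoxic genes, 2 rose there, Klrg1 and Ccl3, and none fell, with adjusted p of 0.124 for Ccl5, 0.0571 for Ctsw, 0.0753 for Klrk1 and 0.441 for Lamp1 (edgeR). The direction of Gzmb turned, to 844, 898, 632 and 464 CPM with both tumors below both controls (log2 fold change -0.66, adjusted p = 0.232). Prf1 turned the other way, from -0.38 to 2.24 (27.4, 3.34, 76.6 and 96.3 CPM, adjusted p = 0.0535, edgeR). Runx3 (-0.70 to 0.65), Nkg7 (-0.55 to 0.21), Klrc1 (-0.29 to 0.93) and Klrd1 (-0.29 to 0.75) also turned upward. Fasl (0.86 to -0.28) and Ccl4 (1.01 to -0.17) turned downward. None of the genes from Runx3 to Ccl4 passed the test in that fit (lowest adjusted p = 0.355, edgeR). Myc also missed the threshold at a log2 fold change of 3.62, against 3.13 over all members (adjusted p = 0.0619), and that of Klrk1 was -0.94 against -1.07. Gzmk missed it too (3.22 against 4.79), as did Il2rb (-0.64 against -1.27), Il2rg (-0.49 against -0.97), Il4ra (-0.84 against -1.35) and Hk2 (-0.76 against -1.93), and Gzmc was too low to be tested. Of 12 Treg genes, 4 rose (Foxp3, Ctla4, Ikzf2 and Itgb8) and Ccr8 and Capg fell, while Tnfrsf4 and Il10 missed the threshold (adjusted p = 0.177 and 0.0773). The call of Foxp3 rests on the cells left out, since the 4 control members with a Foxp3 UMI were all mixed. Its controls thus went from 12.8 and 0.766 CPM to 0 in both libraries. Itgb8 was already called over all members (log2 fold change 3.85, adjusted p = 0.0489, edgeR). Its controls went from 15.5 and 0.766 CPM to 0 in both libraries. Of 12 genes of the IL-2 receptor family and its targets, Bcl2, which protects from cell death, rose (31.1, 30.04, 97.6 and 76.2 CPM) and Il7r fell. Each is 8.33% of those genes, against 1.88 and 3.12% of all genes tested there. Over all members Bcl2 had the opposite direction, at 165, 168, 100.2 and 121 CPM (log2 fold change -0.61, adjusted p = 0.105).

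**Figure D4:**
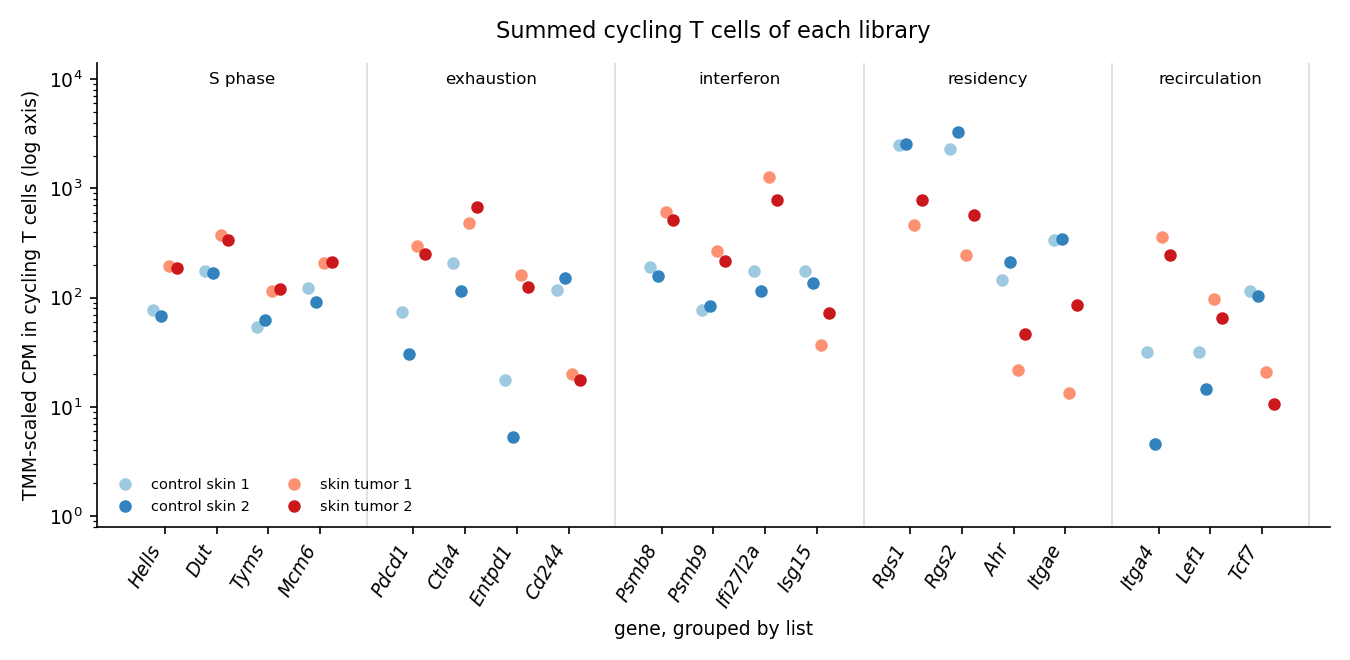
TMM-scaled CPM (log axis) in the summed cycling T cells of each of the 4 libraries (points) for genes of 5 lists that passed the test. For no gene shown do tumors and controls overlap, and the tumors lie above the controls for the S phase genes and below them for the residency genes.

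Members of both tissues were chosen for the cell cycle, yet some S phase genes differed between them. Of 32 S phase genes, 6 rose (18.8%, against 5.04% of all genes tested) and none fell. A positive log2 fold change was found for 29 of them, against 4836 of all 9212 genes tested. The medians were 0.65 and 0.05. Hells, a chromatin helicase, stood at 78.02, 68.1, 195 and 187 CPM (log2 fold change 1.39 ± 0.22, adjusted p = 0.00808). Dut and Tyms, enzymes of thymidine nucleotide supply, stood at 175, 168, 372 and 337 CPM and at 54.5, 62.0, 115 and 121 CPM. Mcm6, a subunit of the replicative helicase, stood at 122, 91.1, 207 and 210 CPM. Gins2 rose too. Of 34 G2 and M phase genes, Ttk, a mitotic checkpoint kinase, rose (16.8, 25.3, 74.1 and 42.7 CPM) and none fell (median 0.21). That is 2.94% rising, against 5.04% of all genes tested. The S phase list summed to 1724, 1978, 3137 and 3115 CPM and the G2 and M phase list to 3696, 4895, 6817 and 4824 CPM, both without TMM scaling. Without γδ and mixed cells, Hells was the only S phase gene called and Plk1 the only G2 and M phase gene. These are 3.45 and 3.33% of their tested genes, against 1.88% of all genes tested there. Of 29 S phase genes 25 were positive, against 3501 of all 6645. The log2 fold changes there were 1.05 for Tyms (1.02 over all members), 0.87 for Dut (1.05), 1.29 for Gins2 (1.83), 0.28 for Mcm6 (0.97) and 1.30 for Ttk (1.55). None of the 14 replication-dependent histone genes passed the test over all members. In the fit without γδ and mixed cells, Hist1h1b (1976, 2323, 949 and 838 CPM, adjusted p = 0.0453, edgeR) and Hist1h1d (adjusted p = 0.0448, edgeR) fell. A negative log2 fold change was found there for 12 of 14, against 3144 of all 6645 genes tested.

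E2F factors drive S phase genes through a motif that can be spelled TTTCCCGC, TTTCGCGC, TTTGCCGC or TTTGGCGC. On either strand, with overlaps allowed, at least 1 of these was present in the 250 bases before the start of 7 of the 24 S phase genes that had a RefSeq promoter (GRCm38.p6), or 29.2%. It was present before 2.16% of all 27025 genes with a promoter and before 1 of 28 G2 and M phase genes. Of the 6 S phase genes that rose, Mcm6 and Hells had a match and Dut and Tyms had none. The promoter of Mcm6, the S phase gene called higher with the most matches, is given with its 3 matches in capitals, of which 2 overlap (chr1:128359706-128359955, minus strand). A match is a description of the sequence and says nothing of binding in these cells.
Mcm6: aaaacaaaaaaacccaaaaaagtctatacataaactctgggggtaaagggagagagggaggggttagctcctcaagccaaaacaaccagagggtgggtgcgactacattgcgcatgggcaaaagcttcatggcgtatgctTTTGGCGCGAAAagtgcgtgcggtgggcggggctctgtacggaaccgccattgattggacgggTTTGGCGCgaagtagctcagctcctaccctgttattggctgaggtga

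The change between tumor and control was then compared between members and non-cycling T-gated cells of the same libraries by an interaction term. Of 11314 genes, 21 (0.186%) had a higher tumor to control ratio in members and 178 (1.57%) a lower ratio. Without γδ and mixed cells the numbers were 6 and 14. Rrm1, the large subunit of ribonucleotide reductase (chromosome 7, 102441695 to 102469771), was at 126, 146, 142 and 147 CPM in members. In non-cycling cells it was at 126 and 123 CPM in control skin and at 20.4 and 22.4 CPM in tumors, a difference in log2 ratio of 2.64 ± 0.22 (SE, adjusted p = 0.000132). Non-cycling γδ cells of the controls held this RNA, with a Rrm1 UMI in 47.0 and 48.6% of them, against 8.82 and 20.5% of non-cycling CD8 cells and 12.03 and 9.20% of myeloid cells. The call was lost without γδ and mixed cells. Blm, a DNA helicase, was the other S phase gene with a higher ratio, and it too missed the threshold without them. Of 34 G2 and M phase genes, 3 had a lower ratio in members and none a higher one (median -0.90), namely Ube2c, a ubiquitin-conjugating enzyme of mitosis, and the mitotic kinesin genes Cenpe and Kif11. Ube2c was at 170.0, 263, 237 and 140.2 CPM in members and at 1.29, 0.668, 6.30 and 6.87 CPM in non-cycling cells. None of the 3 passed the test without γδ and mixed cells, and over 14 alternatives Cenpe and Kif11 missed the threshold in 12 each. Members and non-cycling cells were split by Top2a and Mki67, so the levels of cell cycle genes in each state can depend on that gate. Its part in the ratios of these genes was not tested.

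Recirculation genes held 6 of the lower ratios, of 11 tested, and no higher one (median -1.78, against -0.13 over all genes tested). Klf2, a transcription factor that keeps T cells in circulation, was at 36.1, 21.3, 26.8 and 63.4 CPM in members and at 37.2, 31.7, 199 and 202 CPM in non-cycling cells. Ccr7, the chemokine receptor for lymph node entry, was at 70.8, 38.2, 35.8 and 81.8 CPM and at 38.5, 35.9, 188 and 182 CPM. S1pr1, Tcf7, Lef1 and Il7r were the others. For Klf2, Ccr7 and S1pr1, tumors lay above controls in the non-cycling cells and overlapped them in members. The 6 differences without γδ and mixed cells ranged from -2.35 to -1.45, and Tcf7 alone kept its call. Of 28 interferon genes, 4 had a lower ratio (Isg15, Ifi27l2a, Igtp and Psmb9) and none a higher one. Ifi27l2a alone kept its call without γδ and mixed cells. Over 14 alternatives, Igtp and Psmb9 missed the threshold in 11 each and Isg15 in 9.

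Marker lists of other cells differed in level in members, both among lists and between libraries. The 11 macrophage genes summed to 81.8, 152, 184 and 558 CPM, with Apoe on top in the first 3 libraries and Lyz2 in skin tumor 2, and none of the 7 tested differed by the test. Of these 7, 6 had a positive log2 fold change (median 1.83), against 4836 of all 9212 genes tested. For 5 of them both tumors lay above both controls (31.3% of all genes tested lay so). At least 10 macrophage UMIs were found in 3, 3, 7 and 8 members, and more than 1 Lyz2 UMI in 0, 10, 22 and 12. Mast cell genes summed to 1175 CPM in control skin 1 and to 4.35, 1.28 and 5.54 CPM elsewhere. In control skin 1, 1 cell held 1515 of the 1867 mast cell UMIs, and the sum was 223 CPM without it. B cell, neutrophil, dendritic, keratinocyte and fibroblast lists each summed to under 80 CPM in every library. The B cell gene Ighm was at 54.5, 83.5, 43.6 and 58.8 CPM over all members (adjusted p = 0.317), but without γδ and mixed cells it was at 3.66, 0, 46.3 and 69.5 CPM and rose (log2 fold change 4.51, adjusted p = 0.0126). The NK list summed to 110, 5.80, 128 and 35.1 CPM, and its member Eomes, also a gene of CD8 effector cells, rose. Without γδ and mixed cells Eomes missed the threshold at a log2 fold change of 3.50, against 3.62 over all members (adjusted p = 0.0521, edgeR). The 4 MHC class II genes, of which H2-Ab1 was limited by the gate, summed to 324, 332, 269 and 538 CPM, and none of the 3 tested differed by the test. The 5 ILC2 genes had the highest sum of these lists in every library but skin tumor 1, at 1330, 1058, 162 and 639 CPM. In skin tumor 2, 1 cell held 171 of the 346 ILC2 UMIs. Without the largest cell of each list, the ILC2 sum there was 341 CPM, below macrophage (436) and MHC class II (513) genes. Areg, the growth factor gene on top of the ILC2 list except in skin tumor 1, was found in 78.4 and 84.1% of the cycling γδ cells of the controls. Il5 and Il13 fell. Of 13 genes induced by tissue dissociation, Hspa1a and Hspa1b rose (361, 194, 1370 and 2613 CPM for Hspa1a) and Fosb, Junb and Egr1 fell (263, 397, 11.6 and 44.5 CPM for Fosb). Without γδ and mixed cells, Hspa1a, Hspa1b and Jun rose, Jun at a log2 fold change of 3.27 against 0.26 over all members. Fosb alone fell there, and Junb (-1.32 against -1.58) and Egr1 (-0.77 against -1.21) missed the threshold. Xist, which is transcribed from the inactive X chromosome, had no UMI in the members of any library, and the sex list had no called gene in the comparison of members. The part of these cells and of dissociation in the results above was not tested.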

How the data were processed

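CD45+ DAPI- cells from 2 control skins and 2 skin tumors were sequenced as 3' droplet libraries (10x Genomics). The authors used Cell Ranger to count UMIs of each gene in each cell (7.1.0 in the submitters' processing notes, 7.0.1 in the file headers) on mm10. The deposited counts were per library, unnormalized, after cell calling. Intronic read handling is not given in the sources used here. Of 31053 gene identifiers, 30934 were in GENCODE vM21, used for coordinates.

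Members were chosen by raw UMIs as the report states. The gate, gene lists and tests were chosen with earlier results of these data known. No doublet caller was run. Cells over 40000 UMIs (4, 1, 14 and 0 members) and a strict myeloid gate (H2-Ab1 under 5, Csf1r 0, Lyz2 at most 1) were alternatives. Library was the replicate. Whether libraries of a group came from separate mice beyond being 2 samples is not stated, so p-values measure the spread between these samples.

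Numbers of cells and counts summed over members were tested with edgeR 4.0.16 (quasi-likelihood; for genes TMM and filterByExpr), with Benjamini-Hochberg adjustment over all rows of a fit and a threshold of 0.05. The interaction fit had library and state as terms, and both sums of a library share its cells' preparation. SEs were derived from the log2 fold change and the F statistic. Libraries needed 10 cells for a sum. Named genes were the gate and lineage genes, up to 5 per list by adjusted p among called genes and genes of lists whose counts are given, and the 10 largest rises and 10 largest falls (5 in the other fits) with both tumors beyond both controls, leaving out receptor variable, immunoglobulin, mitochondrial, ribosomal, sex and unnamed genes. A few genes and 1 allele that these rules or the study name are not reported here. Alternatives were other gates, filters, lineage calls, thinning, DESeq2 1.42.0, a replicate block and leaving out each library. The fits were checked on simulated data. Thinning used 1 random draw per cell. Intervals are Clopper-Pearson at 95%, and a count of 0 was given a limit of 3 counts over the library, or over the group for folds.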

Additional observations from a re-analysis of the deposited data

Results flagged for a closer look

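In 10 named genes, the ratio of tumor to control differed between cycling and non-cycling T cells by the test of that difference (edgeR, interaction term, differences on the log2 scale). The ratio was higher in cycling cells for Sema6a (10.62), Nrip3 (6.98), Olfm3 (4.53), Rrm1 (2.64) and Pde10a (2.41). It was lower for Idi2 (-11.58), Qpct (-7.59), Cdh10 (-6.93), Ncam1 (-4.03) and Krt83 (-4.01). Under the alternatives, the threshold was missed by Qpct in 10 of 13, Ncam1 in 10 of 14, Cdh10 in 9 of 14, Sema6a in 8 of 13 and Pde10a in 6 of 14, in 1 of them with the direction turned, and by the other 5 genes in 1 to 4. Several rest on few cells. In skin tumor 2, the 3 cycling γδ cells held all Nrip3 UMIs of its members (186) and all Olfm3 UMIs (105). Sema6a had 10 UMIs and Idi2 had 9 in all members, and values beside libraries at 0 depend on the prior count and are no measure of size.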

How the results depend on the processing

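With 2 libraries a group and 29 members in skin tumor 2, depth limits every result on single lineages, and leaving out a library assumes that the lone one varies like the other group's. Leaving out each library in turn gave log2 fold changes from 0.61 to 1.74 for the cycling share of T-gated cells (past the threshold without skin tumor 2), from -0.66 to 0.55 for members among all cells, from 0.73 to 1.72 for the CD8 share, from -1.44 to -0.26 for the CD4 share, from 0.63 to 1.03 for the γδ share, from 4.99 to 6.21 for the Treg share (past the threshold without skin tumor 2, 6.18) and, among all cells, from -4.84 to -3.06 for cycling γδ, from -0.01 to 3.07 for CD8, from -0.24 to 0.88 for CD4 and from 6.07 to 6.81 for Treg. The genes higher and lower in members ranged from 81 to 1180 and from 297 to 1742, and those with a higher and lower ratio in members from 5 to 200 and from 5 to 281. The direction turned for members among all cells without skin tumor 1 (-0.66) and with a threshold of 3 UMIs of Top2a and Mki67 (-0.14), for cycling CD8 cells among all cells without skin tumor 1 (-0.0065), and for cycling CD4 cells without skin tumor 2 (-0.24). Treg values are fitted against 0 and are no bound. With 3 UMIs the Treg share changed by 0.76 and did not pass the test.

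The CD8 share missed the threshold when thinned (1.18) and with lineage calls at 1 UMI (1.33). The Treg share passed it with 6 Cd3 UMIs (5.95), the strict myeloid gate (5.54) and lineage calls at 1 UMI (5.83). Genes higher in members numbered 224 with 10 UMIs of Top2a and Mki67, 125 without γδ and mixed cells, 249 with DESeq2, 896 without a filter on low counts and 266 with the replicate block, and genes lower 603 with 10 UMIs and 207 without γδ and mixed cells. Genes with a higher ratio in members numbered 7, 6, 9 (without uncalled and mixed cells) and 304 (no filter) under the first, second and those settings. Genes with a lower ratio numbered 56 with 10 UMIs, 62 with the strict myeloid gate, 28 without cells over 40000 UMIs, 14 without γδ and mixed cells, 90 without uncalled and mixed cells, 87 with DESeq2 size factors and 59 with DESeq2. Of the single genes followed through the alternatives, Cd4 (-0.19), Gzmb (-0.66), Tox (0.96), Bcl2 (1.53) and Ighm (4.51) turned direction without γδ and mixed cells. Other listed genes turned there too. Among them, Prf1 (-0.38 to 2.24), Havcr2 (-0.63 to 0.93), Bst2 (-0.64 to 1.44) and Runx3 (-0.70 to 0.65) turned upward. Trac (0.23 to -0.88) and Fasl (0.86 to -0.28) turned downward. None of the genes from Prf1 to Fasl passed the test without γδ and mixed cells. Leaving out each library in turn gave log2 fold changes from -0.58 to 0.15 for Tox and from -0.45 to 0.54 for Lag3. Pde10a turned in the interaction with the strict myeloid gate (-0.43). Causes were not tested.

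The replicate numbers did not pair the samples, since deviations of same-numbered samples correlated at 0.032. With the number as a block, the cycling share of T-gated cells changed by 1.22 (adjusted p = 0.221) and genes lower in members numbered 743. Alternative values for single genes in members covered genes with the largest changes, called genes of the lists, the lineage genes and some others. Of these values, 1370 kept direction and side of the threshold, 227 missed it, 53 newly passed and 9 turned. Of those for named genes in the comparison with non-cycling cells, 183 kept both, 149 missed the threshold and 1 turned.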
